A study of Mus musculus with 12 samples.

Results

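The smooth muscle contractile genes followed here were chosen by name: the rows of the count tables whose symbol was Acta2, Actg2, Tagln, Cnn1, Myl9, Myh11, Tpm1, Tpm2, Cald1 or Lmod1. All 10 were present among 24421 symbols, and all 10 passed the filter on low counts in the fit over all libraries. Bulk RNA-seq was made of 12 mouse libraries in 4 groups of 3. The tumours were induced by injecting RCAS retroviruses into the brain, each carrying a gene fusion that joins the transcriptional co-activator YAP1 to another protein. The groups were YAP1-TFE3 tumours, YAP1-FAM118B tumours, YAP1-MAMLD1-dR3R1 tumours and naive cortex of mice without injection. The tumours were frozen whole, so cancer cells, vessels, immune cells and trapped brain contribute to each value. Strain, age and the cells open to the virus were not given in the sources used here, and the labels do not say whether the replicates of a group were separate animals. The p-values therefore measure the spread between these libraries. Within the YAP1-FAM118B, YAP1-MAMLD1-dR3R1 and naive groups, libraries with Y-linked Ddx3y and almost no Xist stood beside one with Xist and almost no Ddx3y, so these were not repeats of 1 animal. All YAP1-TFE3 libraries held Ddx3y and at most 0.384 CPM of Xist, so there these genes do not tell separate animals from repeats of 1 animal.

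The libraries held between 19850220 and 24760814 counted reads each. The labels disagree in places: the naive libraries carry a brain tumour tissue label beside a source of normal cortex, and the extraction text describes cultured cells. Markers of cortical neurons summed to between 7478 and 11355 CPM, the read count of a gene scaled to a fixed library total, in the naive libraries, which also held 112 to 395 CPM of hypothalamic neuron markers. The same neuron markers summed to between 60.2 and 942 CPM in YAP1-TFE3 tumours, 4827 and 6847 CPM in YAP1-FAM118B tumours, and 64.6 and 1411 CPM in YAP1-MAMLD1-dR3R1 tumours. Naive replicate 2 and YAP1-FAM118B replicate 2 held reads of both Xist and Y-linked genes, and results that change without these libraries are marked where they stand.

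Smooth muscle contracts when myosin II, built of the heavy chain Myh11 and light chains such as Myl9, pulls on filaments of the actins Acta2 and Actg2. Tropomyosins, caldesmon, calponin and transgelin lie along those filaments and set their stability and their access to myosin, while leiomodin starts new filaments. Serum response factor (SRF), which binds CArG boxes, drives these genes with the co-activators myocardin and the MRTFs, and TEAD factors, the DNA-binding partners of YAP1, bind MCAT elements in some of the same promoters. In normal brain the genes mark arterial smooth muscle and some pericytes, and myofibroblasts carry Acta2 and Tagln outside muscle.

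Promoter windows running from 250 bases before to 50 bases after a RefSeq transcription start (GRCm38.p6) were found for 7 of the 10 genes, with 8 windows in all since Cald1 had 2. In the GENCODE vM21 annotation of the same build the genes lie on chromosomes 1 (Lmod1), 2 (Myl9), 4 (Tpm2), 6 (Actg2 and Cald1), 9 (Tagln, Cnn1 and Tpm1), 16 (Myh11) and 19 (Acta2). Actg2, Tagln and Myh11 had none. The 5 windows printed here show both directions of difference between the tumours: Acta2, Lmod1 and Tpm1 were higher in YAP1-TFE3 tumours than in the other tumours, and Myl9 and Tpm2 were lower in YAP1-TFE3 than in YAP1-MAMLD1-dR3R1 tumours. Each reads 5′ to 3′ on the strand of its gene, and capitals mark CArG boxes, CArG boxes with 1 core base replaced, and the letters GGAATG of the MCAT element on either strand. Acta2 lies at chr19:34255324-34255623 on the minus strand, Lmod1 at chr1:135324563-135324862 on the plus strand, Tpm1 at chr9:67049164-67049463 on the minus strand, Myl9 at chr2:156775214-156775513 on the plus strand and Tpm2 at chr4:43523505-43523804 on the minus strand.
Acta2: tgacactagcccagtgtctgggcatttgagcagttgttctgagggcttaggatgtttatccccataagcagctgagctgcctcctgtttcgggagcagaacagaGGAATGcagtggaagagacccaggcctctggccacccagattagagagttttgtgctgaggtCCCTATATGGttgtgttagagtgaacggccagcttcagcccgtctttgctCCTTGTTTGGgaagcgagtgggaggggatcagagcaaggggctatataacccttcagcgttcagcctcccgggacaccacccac
Lmod1: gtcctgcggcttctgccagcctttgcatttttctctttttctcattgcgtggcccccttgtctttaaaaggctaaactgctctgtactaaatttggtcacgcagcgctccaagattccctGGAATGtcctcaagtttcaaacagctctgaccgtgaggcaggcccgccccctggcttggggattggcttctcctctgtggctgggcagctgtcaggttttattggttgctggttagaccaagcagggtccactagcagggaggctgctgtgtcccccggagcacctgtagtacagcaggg
Tpm1: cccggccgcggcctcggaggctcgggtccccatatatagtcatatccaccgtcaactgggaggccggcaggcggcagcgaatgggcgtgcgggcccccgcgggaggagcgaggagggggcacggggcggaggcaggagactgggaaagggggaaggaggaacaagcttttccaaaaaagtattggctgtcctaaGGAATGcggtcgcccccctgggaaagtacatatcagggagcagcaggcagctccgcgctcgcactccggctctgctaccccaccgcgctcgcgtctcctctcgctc
Myl9: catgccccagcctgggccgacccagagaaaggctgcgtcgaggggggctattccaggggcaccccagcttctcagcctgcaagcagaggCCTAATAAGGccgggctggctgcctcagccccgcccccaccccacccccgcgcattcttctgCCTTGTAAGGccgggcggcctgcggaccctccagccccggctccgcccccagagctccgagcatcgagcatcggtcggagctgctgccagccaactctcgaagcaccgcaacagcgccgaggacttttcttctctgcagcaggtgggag
Tpm2: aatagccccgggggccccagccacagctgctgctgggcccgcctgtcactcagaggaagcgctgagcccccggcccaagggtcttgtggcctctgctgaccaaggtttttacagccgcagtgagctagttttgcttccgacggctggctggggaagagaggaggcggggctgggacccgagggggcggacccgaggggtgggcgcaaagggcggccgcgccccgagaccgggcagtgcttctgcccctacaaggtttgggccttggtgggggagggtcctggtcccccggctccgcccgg

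The Acta2 window held 2 CArG boxes with 1 core base replaced, CCCTATATGG starting 84 bases and CCTTGTTTGG starting 34 bases before the transcription start, and GGAATG starting 146 bases before it. Myl9 held the one full CArG box among the members, CCTAATAAGG starting 161 bases before the start, and 1 with a replaced core base, CCTTGTAAGG, 99 bases before it. GGAATG occurred in the windows of 4 members, Acta2, Tpm1, Lmod1 and Cald1. No match to any of these was found in the Tpm2 and Cnn1 windows, and the E-box CACGTG, a sequence bound by TFE3, was found in no member window. Over all 32851 windows of the table, 1.63% held a full CArG box, 8.50% one with a replaced core base, 14.7% GGAATG and 7.15% CACGTG. These are matches of letters only, and nothing about binding was measured.

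Against naive cortex, the 10 genes did not move as a block. Acta2, Tpm1 and Cald1 rose in each of the tumour groups. Actg2, Tagln and Tpm2 rose in YAP1-FAM118B and YAP1-MAMLD1-dR3R1 tumours, Cnn1 and Myl9 rose in YAP1-MAMLD1-dR3R1 tumours, and in YAP1-TFE3 tumours Lmod1 rose and Myh11 fell. Genes were called at an adjusted p under 0.05 in edgeR's quasi-likelihood test over 16364 genes. In YAP1-TFE3 tumours 4 of the 10 members rose and 1 fell, where 70.6% of all genes tested passed, 40.6% rising and 30.0% falling, and the members' median log2 fold change was 1.00 beside 0.23 over all genes. The 4 rising are near the share over all genes, and the 1 falling is below it. In YAP1-FAM118B tumours 6 rose and 0 fell, where 29.7% of all genes passed, 21.3% rising and 8.45% falling, with medians of 2.39 for the members and -0.05 for all genes. In YAP1-MAMLD1-dR3R1 tumours 8 rose and 0 fell, where 63.2% of all genes passed, 34.4% rising and 28.8% falling, with medians of 2.86 and 0.06. For the counts of 0, an unadjusted p under 0.05 and the DESeq2 test also gave 0. These comparisons share the naive libraries and are not independent of each other.

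The split between genes that rose and fell over the whole table depended on the method in YAP1-FAM118B tumours: 71.6% of the called genes were higher than naive in edgeR and 56.6% in DESeq2, while 6 members rose in either. Naive replicate 1 held the lowest naive level of 8 of the 10 members. Without it, 3 of the 6 calls in YAP1-FAM118B tumours were lost (Actg2, Tagln and Tpm2, adjusted p = 0.0849, 0.0613 and 0.0519), and 3 of the 8 in YAP1-MAMLD1-dR3R1 tumours (Actg2, Cnn1 and Myl9, adjusted p = 0.0772, 0.0696 and 0.0628). The log2 fold changes of these 6 calls without it were between 2.22 and 6.21, on the same side as before.

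**Figure D1:**
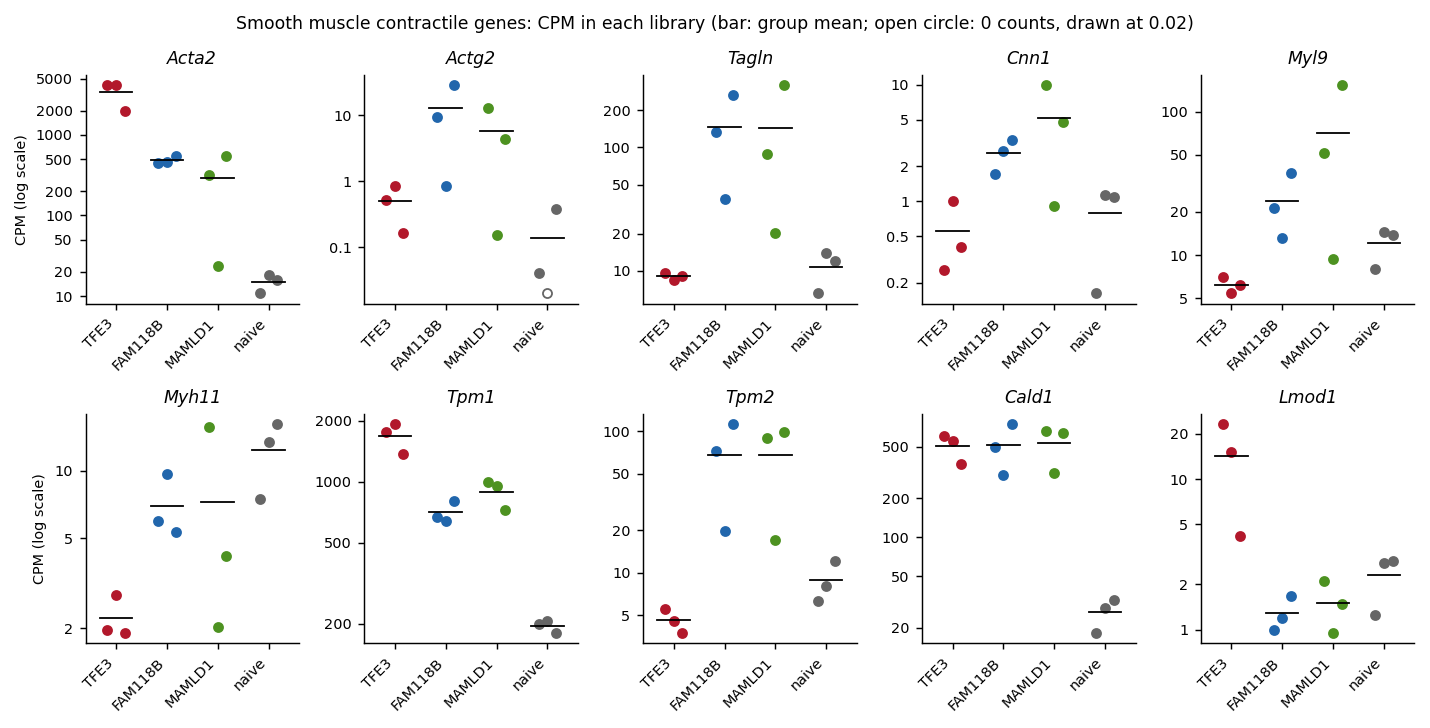
CPM of each gene (log scale) in every library, with the 3 tumour groups left of naive cortex, and a bar at each group mean. Acta2 reached 1968 to 4160 CPM in YAP1-TFE3 tumours while Tagln there stayed between 8.48 and 9.64 CPM, inside the naive range of 6.58 to 13.9 CPM.

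The actins had the largest fold changes of the set, in different tumours. Acta2, smooth muscle alpha-actin, had 4117, 4160 and 1968 CPM in the YAP1-TFE3 libraries, 444, 458 and 543 CPM in the YAP1-FAM118B libraries and 313, 23.6 and 542 CPM in the YAP1-MAMLD1-dR3R1 libraries, against 10.8, 18.3 and 15.7 CPM in naive cortex. Every tumour library lay above every naive library, and every YAP1-TFE3 library lay above the other 6 tumours. Its log2 fold change over naive was 8.03 ± 1.04 (SE, n = 3 libraries a group) in YAP1-TFE3 tumours (adjusted p = 8.85e-05), 4.999 ± 0.910 in YAP1-FAM118B tumours (adjusted p = 0.00263) and 4.32 ± 0.88 in YAP1-MAMLD1-dR3R1 tumours (adjusted p = 0.00191). In bulk tissue, more cells with a transcript and more transcript in each cell cannot be told apart. Actg2, the gamma actin of visceral smooth muscle, was rare everywhere: it had 0.512, 0.839 and 0.163 CPM in YAP1-TFE3 tumours, 9.52, 0.842 and 28.6 CPM in YAP1-FAM118B tumours and 13.0, 0.151 and 4.38 CPM in YAP1-MAMLD1-dR3R1 tumours, against 0.0404, 0 and 0.377 CPM in naive cortex. The naive values rest on 9 reads in all, and replicate 2 of YAP1-MAMLD1-dR3R1 fell inside the naive range. The fitted log2 fold change was 6.55 ± 1.82 in YAP1-FAM118B (adjusted p = 0.0222) and 5.39 ± 1.75 in YAP1-MAMLD1-dR3R1 tumours (adjusted p = 0.0214), and in YAP1-TFE3 tumours it was 2.05 ± 1.73, which did not pass (adjusted p = 0.306). These calls were lost without naive replicate 1 or 2, without YAP1-FAM118B replicate 3 for that tumour and without YAP1-MAMLD1-dR3R1 replicate 1 for the other (adjusted p = 0.0647 to 0.0849). When only the YAP1-MAMLD1-dR3R1 and naive libraries were fitted, Actg2 did not pass the low-count filter and was not tested.

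Lmod1, leiomodin 1, which nucleates actin filaments in smooth muscle, had 23.1, 15.2 and 4.18 CPM in YAP1-TFE3 tumours, 0.991, 1.20 and 1.67 CPM in YAP1-FAM118B tumours and 2.10, 0.957 and 1.49 CPM in YAP1-MAMLD1-dR3R1 tumours, against 1.25, 2.78 and 2.87 CPM in naive cortex. All YAP1-TFE3 libraries lay above all naive libraries, which neither other tumour group did, and replicate 3 was the lowest of them, as it was for Acta2 and Tpm1. The log2 fold change over naive was 2.82 ± 0.59 in YAP1-TFE3 tumours (adjusted p = 0.00174), and Lmod1 did not pass in YAP1-FAM118B tumours (-0.84 ± 0.57, adjusted p = 0.288) or YAP1-MAMLD1-dR3R1 tumours (-0.58 ± 0.57, adjusted p = 0.390).

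Tagln, transgelin or SM22-alpha, a calponin-family protein on smooth muscle actin, had 9.64, 8.48 and 9.06 CPM in YAP1-TFE3 tumours, 133, 38.2 and 263 CPM in YAP1-FAM118B tumours and 87.7, 20.3 and 320 CPM in YAP1-MAMLD1-dR3R1 tumours, against 6.58, 13.93 and 12.002 CPM in naive cortex. The YAP1-TFE3 and naive libraries overlapped, and the other 6 tumours lay above all of them. The log2 fold change was -0.05 ± 0.88 in YAP1-TFE3 tumours (adjusted p = 0.960), 3.74 ± 0.96 in YAP1-FAM118B tumours (adjusted p = 0.0158) and 3.76 ± 0.96 in YAP1-MAMLD1-dR3R1 tumours (adjusted p = 0.00667). The call in YAP1-FAM118B tumours was also lost without YAP1-FAM118B replicate 3 (adjusted p = 0.0590) or naive replicate 3 (adjusted p = 0.0531). The Tagln gene (chr9:45929619-45936058, GENCODE vM21) shares exon bases with its neighbour Pcsk7 and with an antisense gene, and since the strand setting of the counting is not given in the sources used here, their reads cannot be told apart from its own. Cnn1, calponin 1, which inhibits the myosin ATPase, had 0.256, 1.01 and 0.406 CPM in YAP1-TFE3 tumours, 1.72, 2.70 and 3.33 CPM in YAP1-FAM118B tumours and 9.97, 0.907 and 4.82 CPM in YAP1-MAMLD1-dR3R1 tumours, against 0.162, 1.13 and 1.08 CPM in naive cortex. All YAP1-FAM118B libraries lay above naive, yet the test did not pass (1.71 ± 0.87, adjusted p = 0.165), whereas the YAP1-MAMLD1-dR3R1 libraries overlapped naive at replicate 2 and passed (2.74 ± 0.90, adjusted p = 0.0219). The Cnn1 call in YAP1-MAMLD1-dR3R1 tumours was lost without YAP1-MAMLD1-dR3R1 replicate 1 (adjusted p = 0.0875), without naive replicate 2 and YAP1-FAM118B replicate 2 together (adjusted p = 0.0552), and when only the compared groups were fitted (adjusted p = 0.0529).

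The tropomyosins, coiled-coil dimers that run along the actin groove, split between the tumours. Tpm1 had 1758, 1919 and 1366 CPM in YAP1-TFE3 tumours, 673, 645 and 808 CPM in YAP1-FAM118B tumours and 993, 952 and 728 CPM in YAP1-MAMLD1-dR3R1 tumours, against 200, 206 and 181 CPM in naive cortex. No tumour library came near the naive range, and the log2 fold changes had the smallest errors of the 10 genes: 3.29 ± 0.19 in YAP1-TFE3 (adjusted p = 8.72e-07), 1.83 ± 0.18 in YAP1-FAM118B (adjusted p = 7.71e-05) and 2.18 ± 0.18 in YAP1-MAMLD1-dR3R1 tumours (adjusted p = 1.31e-05). Tpm2 had 5.54, 4.57 and 3.78 CPM in YAP1-TFE3 tumours, 72.7, 19.7 and 112 CPM in YAP1-FAM118B tumours and 89.2, 17.1 and 99.3 CPM in YAP1-MAMLD1-dR3R1 tumours, against 6.30, 8.11 and 12.1 CPM in naive cortex. The YAP1-TFE3 libraries all lay below the naive ones without passing the test (-0.73 ± 0.69, adjusted p = 0.358), but passed when only those groups were fitted (-0.94, adjusted p = 0.0317), and Tpm2 rose in YAP1-FAM118B (2.94 ± 0.72, adjusted p = 0.0124) and YAP1-MAMLD1-dR3R1 tumours (2.97 ± 0.72, adjusted p = 0.00495). Cald1, caldesmon, which holds actin and myosin together and blocks cross-bridge cycling until it is phosphorylated, had 605, 558 and 366 CPM in YAP1-TFE3 tumours, 500, 301 and 748 CPM in YAP1-FAM118B tumours and 666, 312 and 642 CPM in YAP1-MAMLD1-dR3R1 tumours, against 18.3, 28.5 and 32.6 CPM in naive cortex. The tumour groups overlapped one another and all lay above naive, with log2 fold changes of 4.47 ± 0.45 in YAP1-TFE3 (adjusted p = 1.8e-05), 4.28 ± 0.44 in YAP1-FAM118B (adjusted p = 0.000105) and 4.36 ± 0.44 in YAP1-MAMLD1-dR3R1 tumours (adjusted p = 3.33e-05). Tpm1, Tpm2 and Cald1 also make isoforms outside muscle, which counts per gene do not separate.

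The myosin subunits passed against naive in one fusion each, in opposite directions. Myl9, the regulatory light chain whose phosphorylation starts contraction, had 6.99, 5.41 and 6.22 CPM in YAP1-TFE3 tumours, 21.2, 13.1 and 37.1 CPM in YAP1-FAM118B tumours and 51.65, 9.47 and 153 CPM in YAP1-MAMLD1-dR3R1 tumours, against 7.997, 14.4 and 13.8 CPM in naive cortex. The YAP1-TFE3 libraries all lay below naive without passing (-0.75 ± 0.77, adjusted p = 0.396), though the fit of only those groups passed (-0.96, adjusted p = 0.0186). YAP1-FAM118B overlapped naive (0.97 ± 0.76, adjusted p = 0.355), and the rise in YAP1-MAMLD1-dR3R1 tumours of 2.61 ± 0.80 (adjusted p = 0.0162) rested on replicate 3, without which it was 1.31 (adjusted p = 0.106). Myh11, the heavy chain and the most restricted smooth muscle marker of the set, had 1.96, 2.81 and 1.91 CPM in YAP1-TFE3 tumours, 5.99, 9.67 and 5.33 CPM in YAP1-FAM118B tumours and 15.6, 2.02 and 4.16 CPM in YAP1-MAMLD1-dR3R1 tumours, against 7.47, 13.4 and 16.05 CPM in naive cortex. All YAP1-TFE3 libraries lay below all naive libraries, and Myh11 fell there by 2.27 on the log2 scale (SE 0.64, adjusted p = 0.00915). In YAP1-FAM118B (-0.83 ± 0.61, adjusted p = 0.324) and YAP1-MAMLD1-dR3R1 tumours (-0.77 ± 0.61, adjusted p = 0.290) it did not pass. Without YAP1-MAMLD1-dR3R1 replicate 1, the highest of those libraries, Myh11 was also lower there (-1.94, adjusted p = 0.00536).

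**Figure D2:**
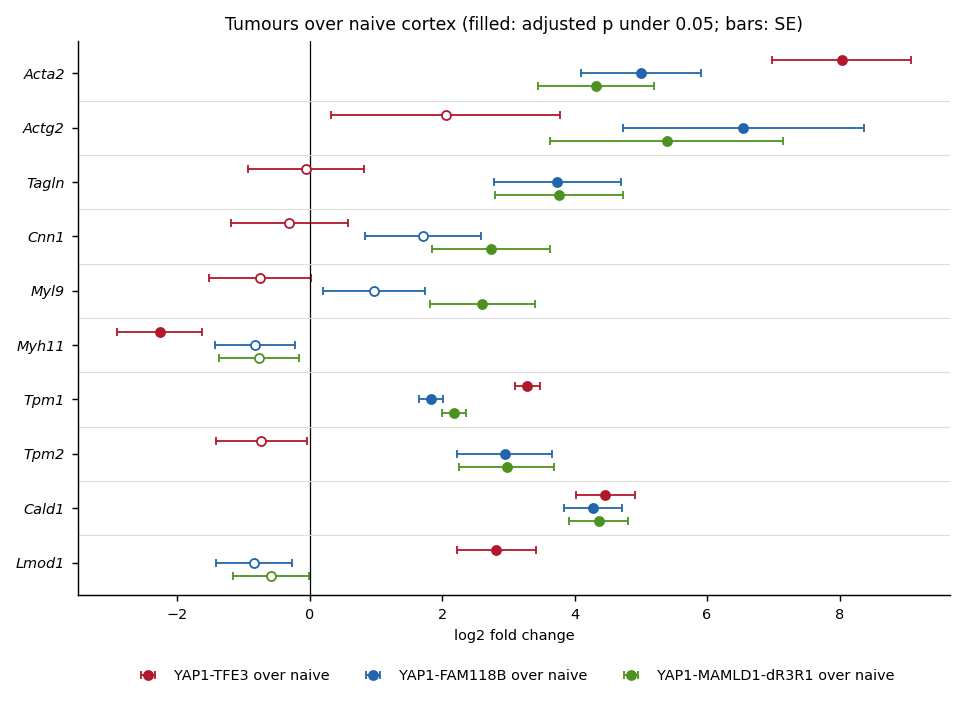
Log2 fold change of each gene over naive cortex for the 3 tumour groups, with bars of 1 SE and filled points where the adjusted p was under 0.05. Acta2, Tpm1 and Cald1 have filled points to the right of 0 for every fusion, and Myh11 in YAP1-TFE3 tumours has the one filled point to the left of 0.

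Set against the other tumours, YAP1-TFE3 tumours were higher for some contractile genes and lower for others. In YAP1-TFE3 over YAP1-MAMLD1-dR3R1 tumours, 3 members were higher (Acta2, Tpm1 and Lmod1) and 4 lower (Tagln, Cnn1, Myl9 and Tpm2), where 39.5% of all genes passed, 22.6% higher and 16.9% lower, and the members' median log2 fold change was -2.27 beside -0.05 for all genes. In YAP1-TFE3 over YAP1-FAM118B tumours, the same 3 were higher and 3 were lower (Actg2, Tagln and Tpm2), where 51.7% of all genes passed, 28.0% higher and 23.7% lower, with medians of -1.58 and 0.08. The member counts over YAP1-FAM118B tumours are near these shares of all genes. Of the called genes of the whole table, 57.2% were higher in YAP1-TFE3 than in YAP1-MAMLD1-dR3R1 tumours, and 45.7% with upper-quartile scaling or 42.0% with library size only. The share higher in YAP1-TFE3 than in YAP1-FAM118B tumours was 54.2%, and 41.3% with library size only. The members called in these comparisons were 7 and 6 under each of these scalings too.

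Acta2 was higher in YAP1-TFE3 tumours by 3.71 ± 0.85 on the log2 scale over YAP1-MAMLD1-dR3R1 (adjusted p = 0.00702) and by 3.03 ± 0.83 over YAP1-FAM118B tumours (adjusted p = 0.0120). The call over YAP1-MAMLD1-dR3R1 was lost when only those groups were fitted (adjusted p = 0.0517), and the call over YAP1-FAM118B without naive replicate 2 and YAP1-FAM118B replicate 2 (adjusted p = 0.0587). Lmod1 was higher by 3.40 ± 0.61 over YAP1-MAMLD1-dR3R1 (adjusted p = 0.00184) and 3.66 ± 0.62 over YAP1-FAM118B tumours (adjusted p = 0.000982). Tpm1 differed less, by 1.11 ± 0.18 (adjusted p = 0.000954) and 1.45 ± 0.18 (adjusted p = 0.000162), and its groups did not overlap. The Lmod1 and Tpm1 calls held in every alternative that was run.

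Tagln was lower in YAP1-TFE3 tumours by a log2 fold change of -3.82 ± 0.97 against YAP1-MAMLD1-dR3R1 (adjusted p = 0.0111) and -3.79 ± 0.96 against YAP1-FAM118B tumours (adjusted p = 0.00846). Tpm2 gave -3.70 ± 0.75 (adjusted p = 0.00352) and -3.67 ± 0.74 (adjusted p = 0.00267), and neither gene's groups overlapped. Myl9 was lower than in YAP1-MAMLD1-dR3R1 tumours (-3.36 ± 0.83, adjusted p = 0.00973) but did not pass against YAP1-FAM118B tumours (-1.72 ± 0.78, adjusted p = 0.0891). Cnn1 was likewise lower than in YAP1-MAMLD1-dR3R1 tumours (-3.04 ± 0.91, adjusted p = 0.0240), a call lost without YAP1-MAMLD1-dR3R1 replicate 1 (adjusted p = 0.0839) or YAP1-TFE3 replicate 1 or 3 and in the fit of only those groups (adjusted p = 0.0658), and did not pass against YAP1-FAM118B tumours (-2.02 ± 0.89, adjusted p = 0.0813). Against YAP1-FAM118B tumours both genes passed in DESeq2 (adjusted p = 0.0305 for Myl9 and 0.0350 for Cnn1) and when only those groups were fitted (adjusted p = 0.0215 for Myl9 and 0.0405 for Cnn1). Myl9 also passed there without YAP1-MAMLD1-dR3R1 replicate 2 (adjusted p = 0.0103) or 3 (adjusted p = 0.0209), and Cnn1 without YAP1-TFE3 replicate 2 (adjusted p = 0.0447), YAP1-MAMLD1-dR3R1 replicate 2 (adjusted p = 0.0342) or naive replicate 1 (adjusted p = 0.0485). Actg2 was lower than in YAP1-FAM118B tumours (-4.49 ± 1.59, adjusted p = 0.0370), a call lost without any one of the YAP1-TFE3 libraries or YAP1-FAM118B replicate 1 or 3 (adjusted p = 0.0579 to 0.131), and with a replicate block (adjusted p = 0.188). Against YAP1-MAMLD1-dR3R1 tumours Actg2 passed in DESeq2 only (adjusted p = 0.0411). Myh11 passed in neither comparison in edgeR (-1.50 ± 0.63, adjusted p = 0.0811, against YAP1-MAMLD1-dR3R1 and -1.44 ± 0.62, adjusted p = 0.0775, against YAP1-FAM118B tumours). In DESeq2 it was lower in YAP1-TFE3 tumours in both (adjusted p = 0.0332 and 0.0336). Without YAP1-MAMLD1-dR3R1 replicate 2 it was also lower in edgeR in both (adjusted p = 0.0176 and 0.0207), and against YAP1-FAM118B tumours it was lower without YAP1-MAMLD1-dR3R1 replicate 1 (adjusted p = 0.0130), in the fit of only those groups (adjusted p = 0.0177) and with a filter of 1 CPM in 3 libraries (adjusted p = 0.0485). Cald1 passed in neither, with smaller differences (0.10 ± 0.39 and 0.19 ± 0.39, adjusted p = 0.852 and 0.711).

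Between YAP1-FAM118B and YAP1-MAMLD1-dR3R1 tumours 0 of the 10 members passed in edgeR, where 26.2% of all genes passed, 12.7% higher and 13.5% lower, and 0 passed at an unadjusted p under 0.05 or in DESeq2. The libraries of every member overlapped between these groups, and how many of all genes did so was not counted. The members' median log2 fold change was -0.07 beside -0.05 for all genes, but single estimates were wide: Myl9 gave -1.64 ± 0.77 (adjusted p = 0.134), Actg2 1.16 ± 1.36 (adjusted p = 0.543) and Tagln -0.03 ± 0.86 (adjusted p = 0.985). Within each of these groups replicate 2 was the lowest library for Tagln, Tpm2, Myl9, Actg2 and Cald1. Without YAP1-MAMLD1-dR3R1 replicate 2, Myl9 was lower in YAP1-FAM118B tumours (-2.02, adjusted p = 0.0453).

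**Figure D3:**
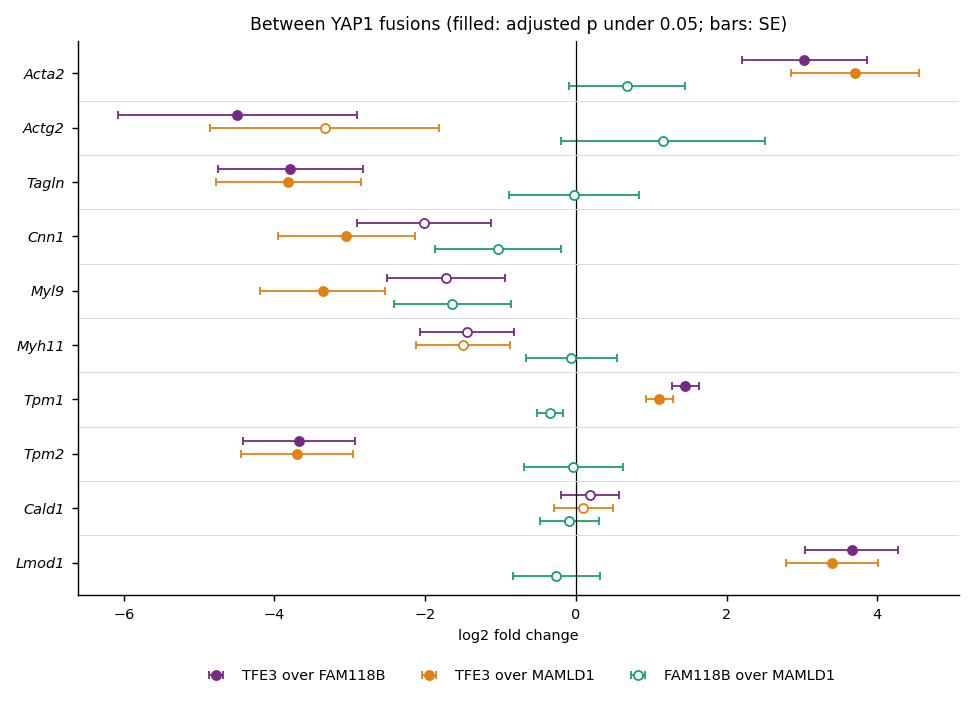
Log2 fold change of each gene between the tumour groups, with bars of 1 SE and filled points where the adjusted p was under 0.05. For YAP1-TFE3 over either other fusion, Acta2, Tpm1 and Lmod1 have filled points to the right of 0 and Tagln and Tpm2 to the left. Actg2, Cnn1, Myl9 and Myh11 also lie to the left in both comparisons, without a filled point in both. No point of YAP1-FAM118B over YAP1-MAMLD1-dR3R1 is filled.

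The makeup of the contractile transcripts differed between the groups as well as their amount. The 10 genes together took 6528, 6676 and 3726 CPM in YAP1-TFE3 tumours, 1862, 1490 and 2550 CPM in YAP1-FAM118B tumours and 2242, 1339 and 2499 CPM in YAP1-MAMLD1-dR3R1 tumours, against 259, 307 and 288 CPM in naive cortex. Without Acta2, Tpm1 and Cald1 the sums were 48.0, 38.3 and 25.7 CPM in YAP1-TFE3 tumours, 245, 85.4 and 451 CPM in YAP1-FAM118B tumours and 269, 50.9 and 587 CPM in YAP1-MAMLD1-dR3R1 tumours, against 29.8, 53.8 and 58.3 CPM in naive cortex. The 7 remaining genes summed in YAP1-TFE3 tumours to a range overlapping that of naive cortex. The genes left out are those called higher over naive in every tumour group, so this overlap follows in part from the choice. The remaining sum also joins opposite calls in YAP1-TFE3 tumours, since Lmod1 rose and Myh11 fell there. Acta2 made up 63.1% of the members' reads in YAP1-TFE3 replicate 1 (exact 95% binomial interval 62.8 to 63.3%), 62.3% in replicate 2 and 52.8% in replicate 3. Its share was between 21.3 and 30.8% in YAP1-FAM118B tumours and between 1.76 and 21.7% in YAP1-MAMLD1-dR3R1 tumours, against 4.17 to 5.95% in naive cortex. These intervals cover counting error only.

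The ratio of Acta2 to Tagln reads, genes that are usually measured as a pair in smooth muscle and myofibroblasts, was 427, 491 and 217 in YAP1-TFE3 tumours, 3.34, 11.99 and 2.06 in YAP1-FAM118B tumours and 3.57, 1.16 and 1.70 in YAP1-MAMLD1-dR3R1 tumours, against 1.64, 1.31 and 1.31 in naive cortex. The YAP1-TFE3 libraries lay far above all others, and YAP1-MAMLD1-dR3R1 overlapped naive. This ratio does not depend on how the libraries are scaled.

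**Figure D4:**
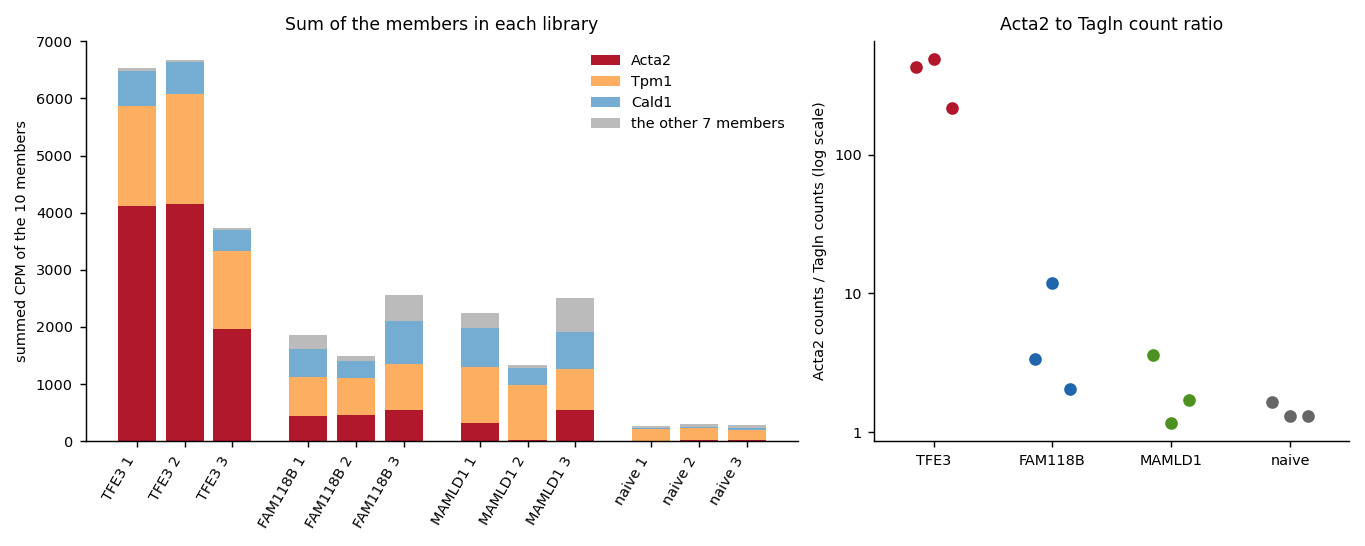
Left, summed CPM of the 10 genes in each library, stacked as Acta2, Tpm1, Cald1 and the other 7, with tumours left of naive cortex. Right, the ratio of Acta2 to Tagln reads on a log scale, which was 217 to 491 in YAP1-TFE3 tumours and at most 11.99 in any other library.

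Per kilobase of merged exons, the order of the genes changed with the group. In YAP1-TFE3 tumours Acta2 led with a mean of 1555 CPM per kb, followed by Tpm1 with 259 and Cald1 with 42.3 CPM per kb, and the ranges of these 3 did not overlap. In YAP1-FAM118B tumours Acta2 (219 CPM per kb) and Tpm1 (109 CPM per kb) were followed by Tagln (72.8 CPM per kb) and Cald1 (42.9 CPM per kb), and the Tagln range overlapped those of Tpm1 and Cald1. In YAP1-MAMLD1-dR3R1 tumours Tpm1 (137 CPM per kb), Acta2 (133 CPM per kb), Tagln (71.7 CPM per kb) and Myl9 (61.5 CPM per kb) had overlapping ranges. In naive cortex Tpm1 led with 30.2 CPM per kb, Myl9 had 10.4, Acta2 6.79 and Tagln 5.45 CPM per kb, and the ranges of the last 3 overlapped. Actg2, Cnn1, Myh11 and Lmod1 stood at the foot of the order in naive cortex, YAP1-FAM118B and YAP1-MAMLD1-dR3R1 tumours.

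The members' patterns across the 12 libraries were compared with one another, without other gene sets as a background. The measure was the root mean square difference between log2 CPM profiles, each centred on its own mean, so a small value means a like pattern. The closest pair was Tagln and Tpm2 at 0.53, followed by Myl9 and Tpm2 at 0.86 and Cnn1 and Myl9 at 0.90, and the farthest was Acta2 and Myh11 at 3.71. Acta2 and Tagln stood 3.28 apart. Measured against the mean profile of the 10 genes, the nearest genes of the table were Trim16, Gatsl3, Lpp, Lhfp and March3, at 0.49 to 0.55. The members themselves ranked from 1328 (Cnn1) to 14921 (Acta2) of 16364. These ranks depend on how strongly a gene varies as well as on its pattern. Trim16, a tripartite motif protein, averaged 9.89 ± 1.93 CPM in YAP1-TFE3, 13.3 ± 3.22 in YAP1-FAM118B tumours and 13.0 ± 10.3 in YAP1-MAMLD1-dR3R1 tumours, against 2.64 ± 0.41 CPM in naive cortex (SD, n = 3). Lpp, a LIM protein of focal adhesions, averaged 43.9 ± 7.65 CPM in YAP1-TFE3, 72.5 ± 27.8 CPM in YAP1-FAM118B and 81.7 ± 27.4 CPM in YAP1-MAMLD1-dR3R1 tumours, against 12.2 ± 2.49 CPM in naive cortex.

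Other genes of the smooth muscle program were called in both directions. Of 22 tested, 7 rose and 7 fell in YAP1-TFE3 tumours (median log2 fold change -0.34), 5 rose and 1 fell in YAP1-FAM118B tumours (-0.02), and 7 rose and 4 fell in YAP1-MAMLD1-dR3R1 tumours (0.31). These counts are near or below the shares over all genes tested, of which 40.6% rose and 30.0% fell in YAP1-TFE3, 21.3% rose and 8.45% fell in YAP1-FAM118B, and 34.4% rose and 28.8% fell in YAP1-MAMLD1-dR3R1 tumours. Smtn, smoothelin, a cytoskeletal protein of contractile smooth muscle, had 115, 105 and 68.3 CPM in YAP1-TFE3, 43.8, 19.0 and 48.1 CPM in YAP1-FAM118B and 26.2, 25.5 and 38.8 CPM in YAP1-MAMLD1-dR3R1 tumours, against 4.44, 5.81 and 9.27 CPM in naive cortex, and rose in each, by 4.09 ± 0.43 on the log2 scale in YAP1-TFE3, 2.50 ± 0.40 in YAP1-FAM118B tumours and 2.23 ± 0.40 in YAP1-MAMLD1-dR3R1 tumours. Des, desmin, the muscle intermediate filament, also rose in each, with log2 fold changes of 2.21 ± 0.66 in YAP1-TFE3, 2.87 ± 0.68 in YAP1-FAM118B tumours and 1.84 ± 0.66 in YAP1-MAMLD1-dR3R1 tumours. Hspb6, a small heat shock protein of smooth muscle, rose in YAP1-TFE3 (3.17 ± 0.48, adjusted p = 0.000236) and YAP1-MAMLD1-dR3R1 tumours (1.79 ± 0.46, adjusted p = 0.00675). Ldb3, a Z-disc protein, fell by 3.08 in YAP1-TFE3 and by 2.21 in YAP1-MAMLD1-dR3R1 tumours, and Pgm5, which sits at adherens junctions of muscle, rose in YAP1-MAMLD1-dR3R1 tumours (2.59 ± 0.38, adjusted p = 0.000279).

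Srf passed in no tumour group, the MRTF genes Mkl1 and Mkl2 fell in YAP1-TFE3 tumours, and Klf4 and Elk3 rose in each. The activity of these factors was not measured, and their part in the contractile gene levels was not tested. Srf had 43.0, 50.02 and 48.0 CPM in YAP1-TFE3, 70.3, 60.7 and 61.9 CPM in YAP1-FAM118B and 53.3, 46.5 and 52.5 CPM in YAP1-MAMLD1-dR3R1 tumours, against 55.0, 70.8 and 52.0 CPM in naive cortex, and passed in no tumour group, with log2 fold changes of -0.14 in YAP1-TFE3, 0.09 in YAP1-FAM118B tumours and -0.22 in YAP1-MAMLD1-dR3R1 tumours (SE 0.14 each). Myocd, myocardin, gave 1 read in each YAP1-TFE3 library and 1.47, 2.22 and 1.67 CPM in YAP1-FAM118B tumours, against 0.242, 0.0434 and 0.471 CPM in naive cortex, and rose in YAP1-FAM118B tumours (2.79 ± 0.79, adjusted p = 0.0239). The MRTF genes were listed under their older symbols. Mkl1 fell by 1.00 on the log2 scale in YAP1-TFE3 tumours (SE 0.25, adjusted p = 0.00500), and Mkl2 fell by 2.47 in YAP1-TFE3 (SE 0.37, adjusted p = 0.000208) and by 2.35 in YAP1-MAMLD1-dR3R1 tumours (SE 0.37, adjusted p = 0.00037). Klf4, which represses contractile genes in cultured smooth muscle, rose by 1.29 ± 0.36 on the log2 scale in YAP1-TFE3, 2.47 ± 0.37 in YAP1-FAM118B tumours and 3.23 ± 0.38 in YAP1-MAMLD1-dR3R1 tumours. Elk3, an ETS factor that partners SRF, rose by 2.70 ± 0.24 in YAP1-TFE3, 3.03 ± 0.24 in YAP1-FAM118B tumours and 3.88 ± 0.25 in YAP1-MAMLD1-dR3R1 tumours. Of 20 tested genes for SRF, its co-activators and smooth muscle regulators, 6 rose and 7 fell in YAP1-TFE3 tumours. In YAP1-FAM118B tumours 7 rose, and in YAP1-MAMLD1-dR3R1 tumours 6 rose and 4 fell. Over all genes tested, 40.6% rose and 30.0% fell in YAP1-TFE3 tumours, and 21.3% rose in YAP1-FAM118B tumours. In YAP1-MAMLD1-dR3R1 tumours 34.4% rose and 28.8% fell. The counts in YAP1-TFE3 and YAP1-MAMLD1-dR3R1 tumours are near or below these shares.

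The non-muscle counterparts of the same filaments mostly rose in each tumour group. Of 21 tested, 20 rose and 1 fell in YAP1-TFE3 tumours, and 17 rose and 2 fell in each of YAP1-FAM118B and YAP1-MAMLD1-dR3R1 tumours. Their median log2 fold changes were 2.34 in YAP1-TFE3, 1.69 in YAP1-FAM118B tumours and 2.01 in YAP1-MAMLD1-dR3R1 tumours. Over all genes tested, 40.6% rose and 30.0% fell in YAP1-TFE3 tumours. The shares were 21.3% and 8.45% in YAP1-FAM118B tumours, and 34.4% and 28.8% in YAP1-MAMLD1-dR3R1 tumours. Myl12a, the non-muscle light chain related to Myl9, had 720, 728 and 438 CPM in YAP1-TFE3, 286, 179 and 391 CPM in YAP1-FAM118B and 263, 198 and 280 CPM in YAP1-MAMLD1-dR3R1 tumours, against 23.9, 26.5 and 29.9 CPM in naive cortex. Tagln2, the widely expressed relative of Tagln, rose in YAP1-TFE3 tumours by 4.59 ± 0.38 on the log2 scale (adjusted p = 6.15e-06), where Tagln did not pass. Cnn3, the relative of Cnn1 found outside muscle, rose by 3.495 ± 0.237 in YAP1-TFE3, 1.95 ± 0.22 in YAP1-FAM118B tumours and 2.98 ± 0.23 in YAP1-MAMLD1-dR3R1 tumours. Myh10, a non-muscle heavy chain abundant in brain, fell by 1.82 in YAP1-TFE3, 0.77 in YAP1-FAM118B tumours and 1.31 in YAP1-MAMLD1-dR3R1 tumours (SE 0.24 each). Of 23 striated muscle genes tested, 1 rose and 12 fell in YAP1-TFE3 tumours, and 5 rose and 1 fell in YAP1-FAM118B tumours. In YAP1-MAMLD1-dR3R1 tumours 2 rose and 9 fell. The 5 rising in YAP1-FAM118B tumours are near the share of 21.3% over all genes given above. The summed level of the 28 listed striated genes was 130, 44.7 and 170 CPM in YAP1-FAM118B tumours, against 61.1 to 69.0 CPM in naive cortex. It was 11.5 to 16.8 CPM in YAP1-TFE3 and 28.1 to 41.5 CPM in YAP1-MAMLD1-dR3R1 tumours.

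Cells that carry contractile genes in normal brain and in scars were followed by their markers. Of 12 pericyte markers, 6 rose in YAP1-TFE3, 6 in YAP1-FAM118B tumours and 7 in YAP1-MAMLD1-dR3R1 tumours, and 0 fell, where 40.6% of all genes tested rose in YAP1-TFE3, 21.3% in the YAP1-FAM118B and 34.4% in the YAP1-MAMLD1-dR3R1 group. Their summed level was 504 to 713 CPM in YAP1-TFE3, 419 to 960 CPM in YAP1-FAM118B and 561 to 1080 CPM in YAP1-MAMLD1-dR3R1 tumours, against 172 to 215 CPM in naive cortex. Pdgfrb, the receptor on pericytes and fibroblasts, had 503, 452 and 260 CPM in YAP1-TFE3, 287, 128 and 420 CPM in YAP1-FAM118B and 228, 199 and 280 CPM in YAP1-MAMLD1-dR3R1 tumours, against 22.7, 28.9 and 24.4 CPM in naive cortex. In a sum chosen after the values were seen, the other 11 markers without Pdgfrb took 210 to 249 CPM in YAP1-TFE3, 292 to 540 CPM in YAP1-FAM118B and 333 to 800.1 CPM in YAP1-MAMLD1-dR3R1 tumours, against 149 to 191 CPM in naive cortex. Rgs5, a pericyte regulator of G protein signalling, rose in YAP1-MAMLD1-dR3R1 tumours (1.26 ± 0.37, adjusted p = 0.0135) and did not pass in YAP1-TFE3 (0.67 ± 0.37, adjusted p = 0.125) or YAP1-FAM118B tumours (0.14 ± 0.37, adjusted p = 0.785). The 14 fibroblast and meningeal markers summed to 998 to 1888 CPM in YAP1-TFE3 tumours, 3982 to 21033 CPM in YAP1-FAM118B tumours and 4356 to 6476 CPM in YAP1-MAMLD1-dR3R1 tumours, against 884 to 1075 CPM in naive cortex. Single markers of this list differed: Col1a2 averaged 655 CPM in YAP1-TFE3, 5957 CPM in YAP1-FAM118B and 2697 CPM in YAP1-MAMLD1-dR3R1 tumours. Ogn averaged 365, 31.6 and 9.75 CPM in the same order, so the sum does not speak for every marker. Thy1, which cortical neurons also express, made 682 to 719 CPM of the naive sum and 8.66 to 86.7 CPM of the YAP1-TFE3 sum. Without Thy1, left out after its values were seen, the other 13 markers summed to 911 to 1879 CPM in YAP1-TFE3, 3528 to 20605 CPM in YAP1-FAM118B and 4216 to 6317 CPM in YAP1-MAMLD1-dR3R1 tumours, against 165 to 382 CPM in naive cortex. Replicate 2, the lowest library for Tagln, Tpm2 and Myl9 in the YAP1-FAM118B group and in the YAP1-MAMLD1-dR3R1 group, was also the lowest of each group for these fibroblast markers (3982 and 4356 CPM). Other ranks differed in the YAP1-MAMLD1-dR3R1 group. Its fibroblast sum was highest in replicate 1 (6476 CPM), while Tagln and Myl9 were highest in replicate 3. Its pericyte sum was lowest in replicate 1 (561 CPM, against 643 CPM in replicate 2). The 12 endothelial markers summed to 213 to 379 CPM in YAP1-TFE3, 399 to 411 CPM in YAP1-FAM118B and 426 to 823 CPM in YAP1-MAMLD1-dR3R1 tumours, against 195 to 221 CPM in naive cortex. None of the pericyte, fibroblast and endothelial markers was at 0 counts in any group, and the part of these cells in the contractile gene levels was not tested.

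**Figure D5:**
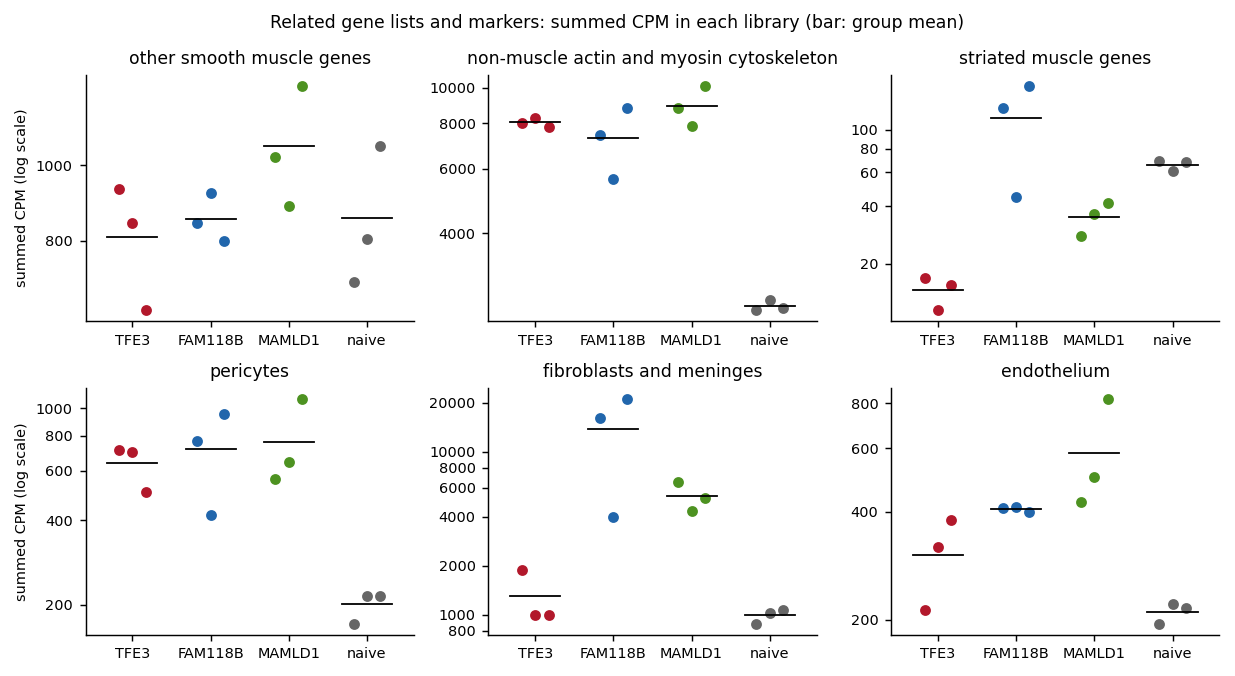
Summed CPM (log scale) of related gene lists and cell markers in each library, with tumours left of naive cortex and a bar at each group mean. The sums of non-muscle cytoskeleton genes and of pericyte markers lie above naive cortex in all 9 tumours. The fibroblast marker sums of YAP1-TFE3 tumours, at 998 to 1888 CPM, lie below the sums of the other tumours.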

How the data were processed

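The authors deposited unnormalised read counts for each gene symbol. HTSeq is named as a tool and mm10 as the build, per the submitters' processing notes. Which aligner, annotation, strand setting and filters were used is not given in the sources used here. Total counts per library, between 19850220 and 24760814, set the counting precision, and the spread between replicates was larger than counting noise in every pair.

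CPM were computed from the counts and the library total. Tests used edgeR 4.0.16 in R 4.3.3: filterByExpr with a minimum count of 10 left 16364 genes, TMM factors scaled the libraries, and a quasi-likelihood model over all 12 libraries gave 6 contrasts with Benjamini-Hochberg adjustment over all genes tested and a threshold of 0.05. Each SE was taken as the absolute log2 fold change over the root of the F statistic. Profiles used log2 CPM with a prior count of 2. Exact binomial intervals are at 95%. The scripts were tested on simulated data.

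Alternatives were DESeq2 1.42.0, RLE, upper-quartile or no scaling factors, no filter, a filter of 1 CPM in 3 libraries, the compared groups alone, a replicate block, leaving out single libraries, and naive replicate 2 with YAP1-FAM118B replicate 2 left out.

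The members and the related lists were chosen with earlier results of these data known, and are not independent evidence of direction. Named genes outside the members are a few set names (Srf, Myocd, Mkl1, Mkl2, Des, Pdgfrb, Rgs5) and the called genes with the smallest adjusted p of each list. Lpp and Trim16 were taken from the 5 nearest genes, and relatives of members from the called genes of their list. Exon lengths and overlaps come from GENCODE vM21, promoter sequences from RefSeq GRCm38.p6.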

Additional observations from a re-analysis of the deposited data

How the results depend on the processing

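Of 32 member calls, 22 were never lost in any alternative, among them all 5 of YAP1-TFE3 over naive. Nothing was lost under other scaling factors or filters, or in DESeq2, which added 5 calls, all lower in YAP1-TFE3 than in the other tumours. The filter of 1 CPM in 3 libraries added 1 of these. Fitting only the compared groups kept 28 calls, lost 3 (Acta2 once, Cnn1 in 2 comparisons) and added 5, all lower in YAP1-TFE3 tumours. It left Actg2 untested in YAP1-MAMLD1-dR3R1 over naive, a call of the main fit, and in YAP1-TFE3 over naive. There Actg2 did not pass the low-count filter. Without 1 library at a time the members called were 5 for YAP1-TFE3 over naive, 3 to 6 for YAP1-FAM118B over naive, 5 to 8 for YAP1-MAMLD1-dR3R1 over naive, 6 to 8 and 5 to 9 for YAP1-TFE3 over YAP1-MAMLD1-dR3R1 and over YAP1-FAM118B, and 0 to 1 for YAP1-FAM118B over YAP1-MAMLD1-dR3R1. The lowest counts over naive, 3 and 5, came without naive replicate 1. Genes called over the whole table were 4861 for YAP1-FAM118B over naive, and 2979 to 5475 without 1 library, and 4293 for YAP1-FAM118B over YAP1-MAMLD1-dR3R1, 1666 to 5069 without 1 library and 1010 without naive replicate 2 and YAP1-FAM118B replicate 2 together. The cause was not tested. TMM put the median log2 fold change of all genes in YAP1-TFE3 over naive at 0.23, and library size only at 0.03. No called member changed sign. Of all 1258 alternative member values, called or not, 67 changed sign, and these passed in neither fit. With the 9 tumour libraries only, 1 of the 5 nearest genes (Trim16) was shared with the list from all libraries. With the replicate number as a block, the members called for YAP1-TFE3 over YAP1-FAM118B were 5, Actg2 being lost (adjusted p = 0.188), and no other member call changed. The samples share only a number: over 18 same-number pairs the correlation of deviations was between -0.11 and 0.32, and 4 were above 0.1. Actg2, Cnn1 and the YAP1-TFE3 level of Myocd rest on few reads, which limits what their folds show.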

Other observations

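Genes whose pattern over the 12 libraries was nearest to single members were looked up after the members' values had been seen, so they are a description only. Nearest to Acta2 were Mgarp, Fstl3, Trpv4, Prss57 and Scel. Fstl3, a secreted antagonist of activins, averaged 465 ± 190 CPM in YAP1-TFE3, 25.9 ± 13.8 CPM in YAP1-FAM118B and 20.4 ± 10.4 CPM in YAP1-MAMLD1-dR3R1 tumours, against 1.28 ± 0.12 CPM in naive cortex (SD, n = 3). Trpv4, a calcium channel opened by stretch and osmotic swelling, averaged 241 ± 18.2 CPM in YAP1-TFE3, 20.9 ± 8.59 CPM in YAP1-FAM118B and 16.1 ± 3.78 CPM in YAP1-MAMLD1-dR3R1 tumours, against 1.84 ± 1.43 CPM in naive cortex. For Fstl3, Trpv4, Prss57 and Scel, as for Acta2, the YAP1-TFE3 libraries stood above every other library, while Mgarp had 8.65 CPM in YAP1-TFE3 replicate 3 and 9.61 CPM in YAP1-FAM118B replicate 3.

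Nearest to Tagln were Tpm2, Tslp, Aldh1a3, Adgra3 and Rem1. Aldh1a3, which makes retinoic acid, averaged 1.65 ± 0.76 CPM in YAP1-TFE3, 12.7 ± 4.67 CPM in YAP1-FAM118B and 22.9 ± 18.2 CPM in YAP1-MAMLD1-dR3R1 tumours, against 0.86 ± 0.22 CPM in naive cortex. Tslp, the cytokine thymic stromal lymphopoietin, gave 3 reads in the YAP1-TFE3 group, 123 in the YAP1-FAM118B group and 115 in the YAP1-MAMLD1-dR3R1 group, against 3 in naive cortex. As for Tagln, the YAP1-FAM118B and YAP1-MAMLD1-dR3R1 libraries of Tslp all stood above the YAP1-TFE3 and naive ones.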
